A study of Mus musculus with 6 samples.

Results

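Klrg1, Thy1, Ly6a, Kit, Cd69, Cd44 and Ptprc encode surface proteins by which group 2 innate lymphoid cells (ILC2s) of the mouse lung are commonly gated and phenotyped in flow cytometry. The 7 genes were picked by symbol, with earlier results of these data known, from the 21825 genes of the deposited table. All 7 were among the 15719 genes that passed the filter on low counts. ILC2s are tissue lymphocytes without a rearranged antigen receptor that make type 2 cytokines. The mice were BALB/c, 6 weeks old, and had received recombinant mouse IL-33 in 3 intraperitoneal injections of 1 µg before lung ILC2s were sorted and kept in culture for 48 h. The 3 TNFa libraries, numbered 4 to 6, came from cells given 40 ng/mL recombinant mouse TNFa, and the 3 PBS libraries, numbered 1 to 3, from cells given PBS in its place. Cells of both groups had been exposed to IL-33 in the animal and were cultured with both IL-7 and IL-2 (each at 10 ng/mL), so neither group represents resting ILC2s. PBS replicate 2 is labelled as a repeat. The labels do not give the antibodies of the sort, nor whether the libraries of a group came from separate animals or cultures. The p-values therefore measure the spread between these libraries, which may be technical.

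The 7 proteins do different work. CD45, the product of Ptprc, is the receptor phosphatase of all nucleated blood cells and sets the activity of Src family kinases. CD90 (Thy1) and Sca-1 (Ly6a) are small proteins held in the membrane by a lipid anchor, both usual positive gates for mouse innate lymphoid cells. KLRG1 is an inhibitory lectin-like receptor for cadherins that is carried by mature and activated ILC2s. c-Kit, the receptor for stem cell factor, is found on lymphoid progenitors and is high on mast cells. CD69 is an early activation antigen that binds the receptor S1PR1 and so holds lymphocytes in tissue, and CD44 is the hyaluronan receptor of activated lymphocytes. What follows concerns transcripts, which need not follow the amount of protein at the surface.

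The libraries held 25089415 to 32487004 estimated counts with TNFa and 29185442 to 30908757 with PBS. TNFa replicate 5 stood apart from the other libraries. Its score was 90.4 on the first principal component, which held 35.6% of the variance, and the other 5 libraries lay between -22.6 and -14.5. In that library the length quartile of tested genes with the shortest transcripts had a median log2 deviation of 0.16 from the PBS mean. The quartile with the longest had -0.081 and the next shorter one -0.094. In the shortest and longest quartiles TNFa replicates 4 and 6 lay between -0.017 and 0.025. There PBS replicate 1 had 0.047 and -0.045, PBS replicate 2 had 0.009 and -0.004, and PBS replicate 3 had -0.047 and 0.055. Kit, Cd69, Cd44 and Ptprc belong to the quartile with the longest transcripts and Klrg1, Thy1 and Ly6a to that with the shortest. The part of these length trends in the differences described next was not tested. Values without TNFa replicate 5 are given beside the genes it moved most.

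All 11 genes listed as defining ILC2s were measured in every library, among them Il5, Gata3, Il1rl1 and Rora, and their summed level was 11710 to 12600 CPM with TNFa and 11000 to 12160 CPM with PBS, where CPM are counts relative to the TMM-scaled library total. Il5 and Il2ra, with higher means with TNFa, made up most of the sum, and 7 of the 11 genes had lower means with TNFa. Gata3, the transcription factor that specifies ILC2s, averaged 705 ± 52.1 CPM with TNFa and 978 ± 71.8 with PBS, Il1rl1, the IL-33 receptor, 425 ± 49.8 with TNFa and 616 ± 64.9 with PBS, and Arg1, arginase 1, 426 ± 32.2 with TNFa and 625 ± 23.5 with PBS. Of the 11 genes 6 had no overlap between the groups, beside 15.2% of all genes. Of these, Gata3, Il1rl1, Arg1, Icos and Rora were lower with TNFa. Il5 was higher, at 5442 ± 308 CPM with TNFa and 4520 ± 448 with PBS. At an unadjusted p under 0.05 in edgeR, 3 of the 11 were higher and 4 lower, beside 8.31% of all genes in either direction. DESeq2 called Gata3, Il1rl1, Arg1 and Icos, beside 1.4% of all genes. The quasi-likelihood test of edgeR called Icos alone, beside 0.102%. The sums over genes of the cells that a lineage gate removes were 14.4 to 17.5 CPM with TNFa and 20.7 to 20.8 with PBS for 5 B cell genes, 6.10 to 14.6 with TNFa and 5.04 to 13.9 with PBS for 8 myeloid, granulocyte and erythroid genes, and 2.73 to 6.32 with TNFa and 3.50 to 4.195 with PBS for 4 NK cell genes. The 10 T cell genes summed to 360.2 to 420.6 CPM with TNFa and 426.7 to 459 with PBS. Most of that came from Trbc1 and Trbc2, while Cd3e averaged 14.8 CPM with TNFa and 18.3 with PBS. The 10 mast cell and basophil genes summed to 1299 to 1475 CPM with TNFa and 1229 to 1391 with PBS. The 9 listed lung structural genes in the table summed to 145.2 to 202.3 CPM with TNFa and 121.2 to 157.5 with PBS, with Pecam1 the largest contributor in each library. Scgb1a1 was at 81.0, 0.187 and 46.1 CPM in TNFa replicates 4, 5 and 6. Of the 5 tested, 4 had higher means with TNFa. Epcam was lower without overlap, at 14.2 ± 1.06 CPM with TNFa and 27.4 ± 1.59 with PBS. It missed the threshold in edgeR (adjusted p = 0.088) and was the 1 gene of this list called in DESeq2 (adjusted p = 8.54e-06).

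The 7 transcripts did not differ in 1 direction between TNFa and PBS cells. Ly6a had the highest mean with TNFa relative to PBS, Klrg1 and Kit had lower means with TNFa. Thy1 had a wide interval, and the TNFa and PBS means of Cd69, of Cd44 and of Ptprc were each within 10% of each other. By edgeR's quasi-likelihood test, Benjamini-Hochberg adjusted over all 15719 genes, 0 of the 7 passed at an adjusted p under 0.05. Of all tested genes 0.102% passed, 0.0891% with higher and 0.0127% with lower levels in TNFa cells. At an unadjusted p under 0.05 there were 2 of the 7, Ly6a and Klrg1, beside 8.31% of all genes. The same 2 genes had no overlap between the TNFa and the PBS libraries, beside 15.2% of all genes. Ly6a had all TNFa libraries higher, as did 6.83% of all genes, and Klrg1 had all of them lower, as did 8.35%. DESeq2 called 1 of the 7, Ly6a, and 1.4% of all genes, and limma-voom called 0 of the 7 and 0.07% of all genes. The median log2 fold change, TNFa over PBS, was 0.0078 over the 7 genes and 0.0047 over all tested genes. In bulk RNA, fewer cells of a kind and less RNA per cell cannot be told apart.

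**Figure D1:**
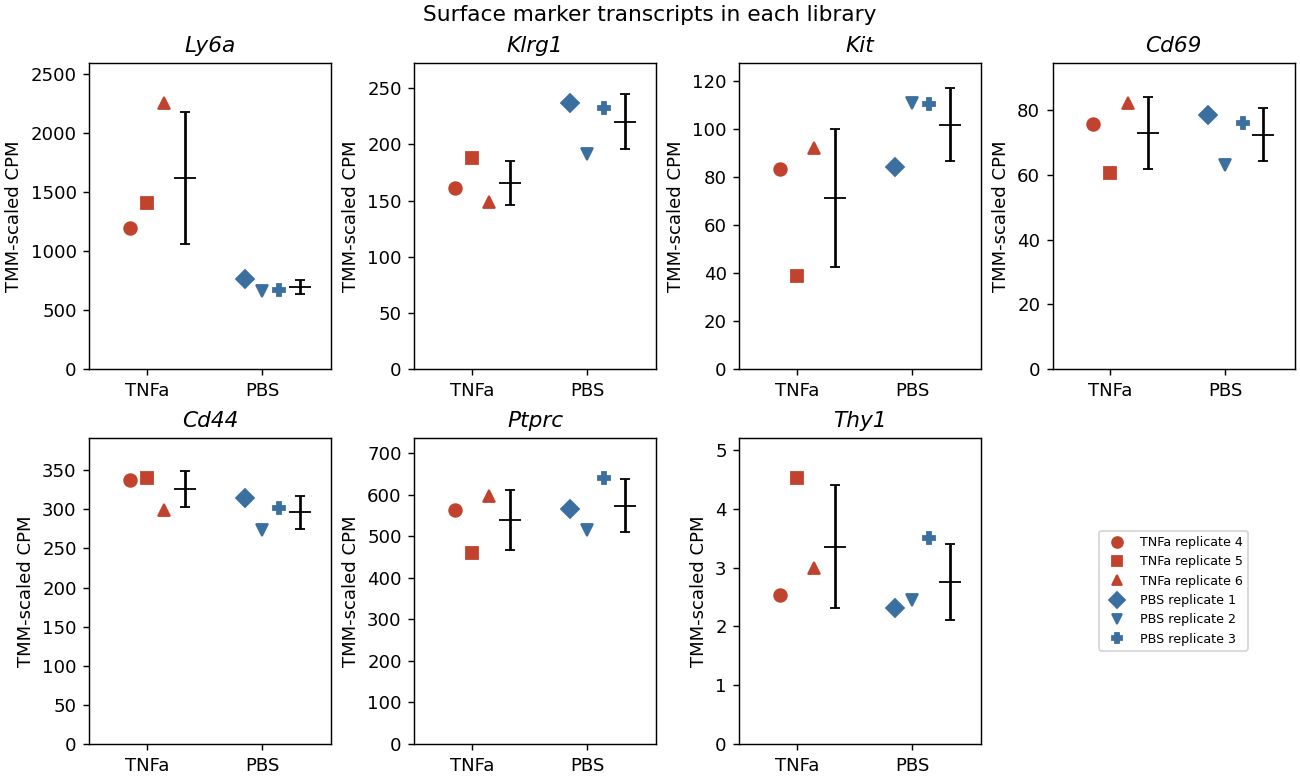
TMM-scaled CPM of the 7 surface marker genes in each library, TNFa left and PBS right in each panel; symbols are libraries, and the bar beside them is the mean with its SD (n = 3). The TNFa libraries of Ly6a lie between 1197 and 2257 CPM, all above the PBS libraries, those of Klrg1 lie below the PBS libraries, and the groups overlap for the other 5 genes.

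Ly6a, the gene of Sca-1, showed the widest separation. It lies on chromosome 15 of mm10 (74994877 to 74998031, minus strand) and is protein coding. Its level was 1197, 1410 and 2257 CPM in TNFa replicates 4, 5 and 6, against 769, 660 and 675 CPM in PBS replicates 1, 2 and 3. Every TNFa library exceeded every PBS library, and TNFa replicate 6 stood well above the other two. The means were 1621 ± 561 CPM with TNFa and 701 ± 59.0 CPM with PBS (SD, n = 3 each), a fold change of 2.31 with a 95% interval of 1.68 to 3.18. The log2 fold change of 1.21 ± 0.21 (SE) missed the threshold in edgeR's quasi-likelihood test at an adjusted p of 0.088. It passed in DESeq2 at an adjusted p of 2.56e-06, and in edgeR at 0.034 when testing was limited to the 9995 genes with at least 5 CPM in 3 libraries, of which 0.25% passed. Over all 13 alternatives the adjusted p of Ly6a ranged from 2.56e-06 to 0.509. Without TNFa replicate 6 the log2 fold change was 0.89 with an adjusted p of 0.106.

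Sca-1 belongs to the Ly6 family. Several of its genes on chromosome 15 resemble Ly6a in sequence, so that the counting has to divide some reads among them. In BALB/c mice, which carry the Ly6.1 allele, fewer resting lymphocytes display Sca-1 than in strains with Ly6.2. Of the windows of 50 bases along the longest annotated Ly6a transcript, 10% (91 of 906) also occurred in transcripts of 4 other genes, 40 of them in Ly6c1, 31 in Ly6i, 20 in I830127L07Rik and 3 in Ly6c2. Of windows of 75 bases 2.38% did, in Ly6c1 and Ly6i. The closest coding sequence among the listed family members was that of Ly6i, with 86.4% identical positions over 405 aligned bases, followed by Ly6f at 84.4%, Ly6g at 83.2% and Ly6c2 at 81.7%. The stretches of 90 coding bases in which Ly6a and Ly6i are most and least alike are shown because they set where a read can tell the pair apart. They are from GENCODE M21 transcripts of the mm10 build, a C57BL/6 genome, written 5′ to 3′ with differing bases in capitals. The first pair covers coding bases 40 to 129 counted from the A of the start codon, and differs at 1 base:
Ly6a: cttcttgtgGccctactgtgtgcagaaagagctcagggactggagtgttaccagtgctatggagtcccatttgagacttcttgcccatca
Ly6i: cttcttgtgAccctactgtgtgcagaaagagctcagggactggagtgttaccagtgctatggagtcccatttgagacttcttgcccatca
The second pair covers coding bases 185 to 274 and differs at 30 bases:
Ly6a: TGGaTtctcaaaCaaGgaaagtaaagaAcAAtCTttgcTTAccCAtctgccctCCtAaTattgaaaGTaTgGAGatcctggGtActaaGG
Ly6i: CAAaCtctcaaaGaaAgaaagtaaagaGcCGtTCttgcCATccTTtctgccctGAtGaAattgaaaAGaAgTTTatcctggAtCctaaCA

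Ly6i reached at most 1.36 CPM and Ly6c1, which shared the most windows, 164 CPM. All 7 other family members in the table together held 149, 140 and 239 CPM in the TNFa libraries against 128, 121 and 114 CPM in the PBS libraries. The sum over the family was 1346, 1551 and 2496 CPM with TNFa against 898, 781 and 789 CPM with PBS. Ly6a made up 88.9% to 90.9% of that sum in the TNFa libraries and 84.5% to 85.7% in the PBS libraries, so the sum largely restates it, and the part of read division in the level of Ly6a was not tested. Of the 12 listed family genes, Ly6a included, 5 were tested and 0 passed in edgeR after adjustment, beside 0.102% of all genes. At an unadjusted p under 0.05 there were 3, beside 8.31% of all genes, and DESeq2 called 1, Ly6a, beside 1.4%. The median log2 fold change of these 5 was 0.61, and all 5 had higher means with TNFa. Ly6c1 averaged 115 ± 42.6 CPM with TNFa and 75.5 ± 7.44 with PBS (adjusted p = 0.47), Ly6c2 15.7 ± 6.88 with TNFa and 10.9 ± 1.24 with PBS (adjusted p = 0.70), and Ly6e 43.8 ± 5.45 with TNFa and 34.2 ± 0.807 with PBS (adjusted p = 0.52), each by edgeR's quasi-likelihood test. TNFa replicate 6 was the highest of the 6 libraries for each of these 3 genes and for Ly6a.

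Ly6a is known to respond to interferons in mouse lymphocytes. Summed over 7 interferon-stimulated genes, a list drawn up after its values and those of Ly6a had been seen, the TNFa libraries held 110.7, 117 and 179 CPM in replicates 4, 5 and 6, against 83.2, 81.3 and 71.1 CPM in PBS replicates 1, 2 and 3. These genes were chosen with their levels in TNFa replicate 6 in view, so the values are a description with no test. Bst2, a membrane protein that tethers enveloped viruses, had the largest share of the sum, at 64.97, 77.8 and 89.7 CPM in the TNFa libraries and 51.7, 55.7 and 45.2 CPM in the PBS libraries. The part of these genes' activity in the level of Ly6a was not tested.

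**Figure D2:**
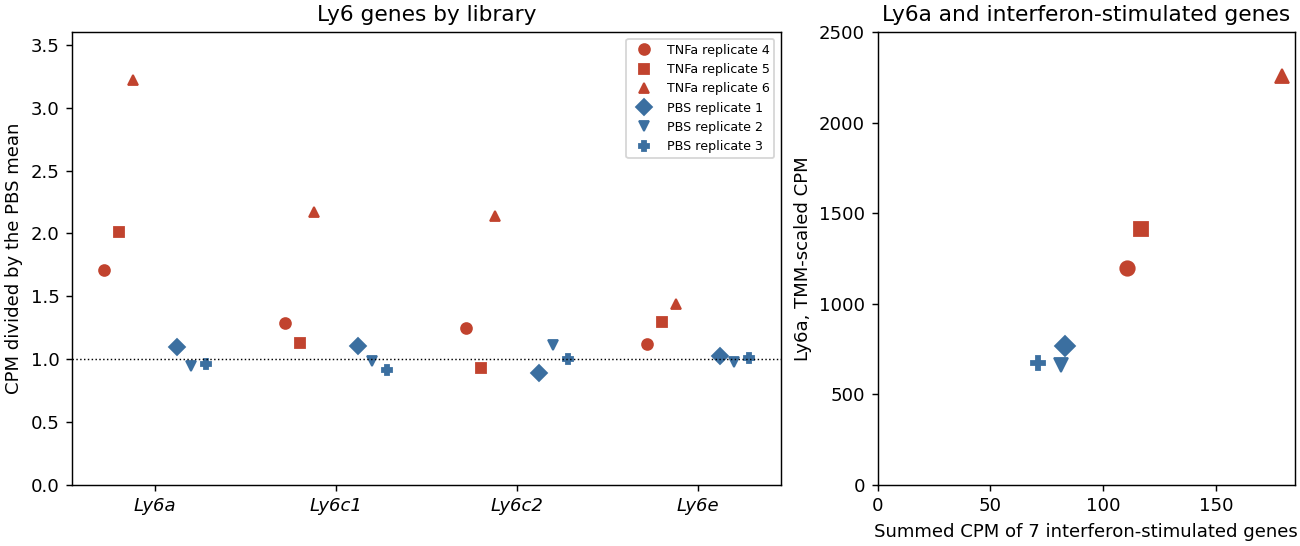
Left, CPM of 4 Ly6 genes in each library divided by the gene's PBS mean, TNFa left of PBS for each gene, with a dotted line at 1. Right, Ly6a (TMM-scaled CPM) against the summed CPM of 7 interferon-stimulated genes in each library. TNFa replicate 6 is the highest library for all 4 genes, and its sum of 179 CPM is the highest on the right. The 7 interferon-stimulated genes were chosen with their levels in that library in view, so the right panel is a description with no test.

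Klrg1 (chromosome 6, 122270596 to 122282882, minus strand) lay the other way. Its level was 161, 188 and 149 CPM in TNFa replicates 4, 5 and 6, against 237, 192 and 232 CPM in PBS replicates 1, 2 and 3. No TNFa library reached any PBS library, although TNFa replicate 5 at 187.6 CPM and PBS replicate 2 at 191.7 CPM lay close together. The means were 166 ± 19.8 CPM with TNFa and 220 ± 24.8 with PBS (SD, n = 3 each), a fold change of 0.753 with a 95% interval of 0.618 to 0.917. The log2 fold change of -0.41 ± 0.13 did not pass over all genes (edgeR quasi-likelihood, adjusted p = 0.39), and over 13 alternatives it stayed between -0.51 and -0.34 with adjusted p-values from 0.094 to 0.82. The lowest of these adjusted p-values came without TNFa replicate 5. The inhibitory receptor's cadherin ligands were sparse in the cultures: Cdh1 (E-cadherin) averaged 2.74 CPM with TNFa and 1.98 with PBS, and Cdh2 (N-cadherin) 4.32 with TNFa and 7.94 with PBS, with overlapping libraries and neither gene called.

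Kit (chromosome 5, 75574916 to 75656722, plus strand) had the largest spread of the 7 between TNFa libraries relative to its mean. It stood at 83.5, 38.7 and 92.1 CPM in TNFa replicates 4, 5 and 6, against 84.5, 111 and 110 CPM in PBS replicates 1, 2 and 3. The low value belonged to TNFa replicate 5 alone, and TNFa replicate 6 lay above PBS replicate 1, so that the groups overlapped. The means were 71.4 ± 28.7 CPM with TNFa and 102 ± 15.1 with PBS, a fold change of 0.701 whose 95% interval of 0.460 to 1.07 includes no change (log2 fold change -0.51 ± 0.27, edgeR adjusted p = 0.68). Without TNFa replicate 5 the log2 fold change was -0.22 (adjusted p = 0.62). Genes of mast cells, which also carry c-Kit, were measured beside it, and their part in the level of Kit was not tested. In TNFa replicate 5, where Kit was lowest, the tryptase gene Tpsab1 was at 750 CPM, against 633 to 764 CPM in the PBS libraries, and Cpa3, mast cell carboxypeptidase, was at 125 CPM, against 110 to 143 CPM in the PBS libraries. Ms4a2, the beta chain of the IgE receptor, was at 8.18, 1.31 and 7.96 CPM in TNFa replicates 4, 5 and 6, against 2.90, 3.16 and 4.27 CPM in PBS replicates 1, 2 and 3. Mrgprb2, a receptor of connective tissue mast cells, was at most 0.818 CPM and was at 0 in TNFa replicate 5 and in PBS replicates 2 and 3. Kitl, the gene of the c-Kit ligand, averaged 11.9 ± 0.514 CPM with TNFa and 22.9 ± 1.00 with PBS with no overlap (log2 fold change -0.94 ± 0.16). It missed the threshold in edgeR's quasi-likelihood test (adjusted p = 0.10) and passed it without TNFa replicate 5 (adjusted p = 0.049), when 0.406% of all genes passed.

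Cd69 (chromosome 6, 129267325 to 129275436, minus strand) was nearly level between the groups. It measured 75.7, 60.5 and 82.1 CPM in TNFa replicates 4, 5 and 6, against 78.3, 62.9 and 76.0 CPM in PBS replicates 1, 2 and 3. Both groups held a library near 60 CPM and the ranges lay over each other. The means were 72.7 ± 11.1 CPM with TNFa and 72.4 ± 8.31 CPM with PBS (SD, n = 3 each). The fold change was 1.01 with a 95% interval of 0.800 to 1.26 (edgeR adjusted p = 0.99), and its sign turned in 3 of the 13 alternatives. Without TNFa replicate 5 the log2 fold change was 0.12, against 0.0078 with all libraries. S1pr1, the receptor that CD69 binds, averaged 30.5 CPM with TNFa and 24.6 with PBS (adjusted p = 0.69), and Klf2, a transcription factor that drives S1pr1, 8.88 ± 0.719 with TNFa and 13.6 ± 3.19 with PBS (adjusted p = 0.51, no overlap), in the same edgeR test. Clec2d, a lectin-like receptor gene of the same chromosomal cluster of natural killer receptor genes, stood at 13.1 ± 4.80 CPM with TNFa and 8.90 ± 1.56 with PBS (adjusted p = 0.66). Of the 25 genes listed for that cluster, Klrg1 and Cd69 included, 9 were tested. In edgeR and in DESeq2 0 of them passed, beside 0.102% and 1.4% of all genes. At an unadjusted p under 0.05 there was 1, the marker Klrg1 itself, beside 8.31% of all genes, and 4 had higher and 5 lower means with TNFa.

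Cd44 (chromosome 2, 102811141 to 102901665, minus strand) showed the smallest spread of the 7 within both groups relative to its mean. It stood at 337, 341 and 299 CPM in TNFa replicates 4, 5 and 6, against 314, 273 and 301 CPM in PBS replicates 1, 2 and 3. TNFa replicates 4 and 5 were above every PBS library and replicate 6 was not. The means of 326 ± 22.9 CPM with TNFa and 296 ± 21.0 with PBS gave a fold change of 1.10 with a 95% interval of 0.936 to 1.29 (edgeR adjusted p = 0.77). Among the proteins that tie the cytoplasmic tail of CD44 to actin, Msn (moesin) averaged 943 ± 224 CPM with TNFa and 1089 ± 80.7 with PBS (adjusted p = 0.78), and Ezr (ezrin) 273 with TNFa and 300.0 with PBS (adjusted p = 0.82). Selplg, the selectin ligand PSGL-1, stood at 622 ± 28.9 CPM with TNFa and 838 ± 87.9 with PBS with no overlap (log2 fold change -0.43 ± 0.11, edgeR adjusted p = 0.28). None of the 3 genes passed in edgeR, and Selplg passed in DESeq2 (adjusted p = 0.037).

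Ptprc (chromosome 1, 138062861 to 138175708, minus strand) had 564, 459 and 596 CPM in TNFa replicates 4, 5 and 6, against 565, 515 and 641 CPM in PBS replicates 1, 2 and 3. The ranges overlapped and the lowest value was again that of TNFa replicate 5. The means were 539 ± 71.7 CPM with TNFa and 574 ± 63.5 CPM with PBS (SD, n = 3 each). The fold change was 0.940 with a 95% interval of 0.772 to 1.14 (edgeR adjusted p = 0.89), and without TNFa replicate 5 the log2 fold change was 0.013. Counts per gene do not separate the CD45 isoforms. Ptprcap, the gene of a small protein bound to CD45, averaged 225 CPM with TNFa and 260.4 with PBS (adjusted p = 0.75), and Lck, a kinase that CD45 acts on, 17.2 CPM with TNFa and 25.8 with PBS (adjusted p = 0.43, no overlap), in the same test.

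Thy1 (chromosome 9, 44043384 to 44048579, plus strand) had few counts in every library. Its estimated counts were 64, 121 and 99.2 in TNFa replicates 4, 5 and 6, against 68, 72 and 111 in PBS replicates 1, 2 and 3, or 2.53, 4.53 and 3.00 CPM with TNFa against 2.32, 2.45 and 3.50 CPM with PBS. The highest value was that of TNFa replicate 5 and the groups overlapped. The means were 3.35 ± 1.05 CPM with TNFa and 2.76 ± 0.65 CPM with PBS (SD, n = 3 each). The fold change of 1.21 had a 95% interval of 0.674 to 2.18 (edgeR adjusted p = 0.89), so that a change of the size seen for Ly6a was not covered by it but a smaller change in either direction was. Without TNFa replicate 5 the log2 fold change was 0.00052. Exons of no other annotated gene overlap those of any of the 7 genes. For Thy1, 0% of the 50-base windows of its longest transcript occurred in another gene. Itgb3, the integrin beta 3 chain that binds CD90, stood at 223 ± 46.7 CPM with TNFa and 392 ± 31.1 with PBS, with no overlap (log2 fold change -0.81 ± 0.15). It missed the threshold in edgeR (adjusted p = 0.11) and passed it without TNFa replicate 5 (adjusted p = 0.027), when 0.406% of all genes passed.

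Levels of different genes were compared as CPM per kilobase of exon, counting every annotated exon base of the gene once. Ly6a was the most abundant of the 7 at 1346 ± 465 CPM per kb with TNFa and 582 ± 49.0 with PBS, above 99.9% of the 15661 tested genes with a known length in the TNFa libraries and 99.6% in the PBS libraries. Klrg1 came next with 117 ± 14.0 CPM per kb with TNFa and 156 ± 17.5 with PBS, followed by Cd44 with 48.1 ± 3.38 with TNFa and 43.7 ± 3.1 with PBS. Ptprc followed with 29.5 ± 3.92 CPM per kb with TNFa and 31.3 ± 3.46 with PBS. Cd69 had 11.2 ± 1.7 CPM per kb with TNFa and 11.1 ± 1.28 with PBS, and Kit 8.02 ± 3.22 with TNFa and 11.4 ± 1.7 with PBS. Thy1 came last at 1.12 ± 0.350 CPM per kb with TNFa and 0.920 ± 0.217 with PBS, below the median tested gene, at the 32.7 percentile with TNFa and the 30.7 percentile with PBS. Library values of neighbouring genes in this order did not overlap within either group except those of Cd69 and Kit. When the longest transcript was used as the length, Ptprc (93.98 CPM per kb with TNFa, 99.96 with PBS) stood above Cd44 (58 CPM per kb with TNFa, 52.8 with PBS), so the order of this pair depends on the length chosen.

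**Figure D3:**
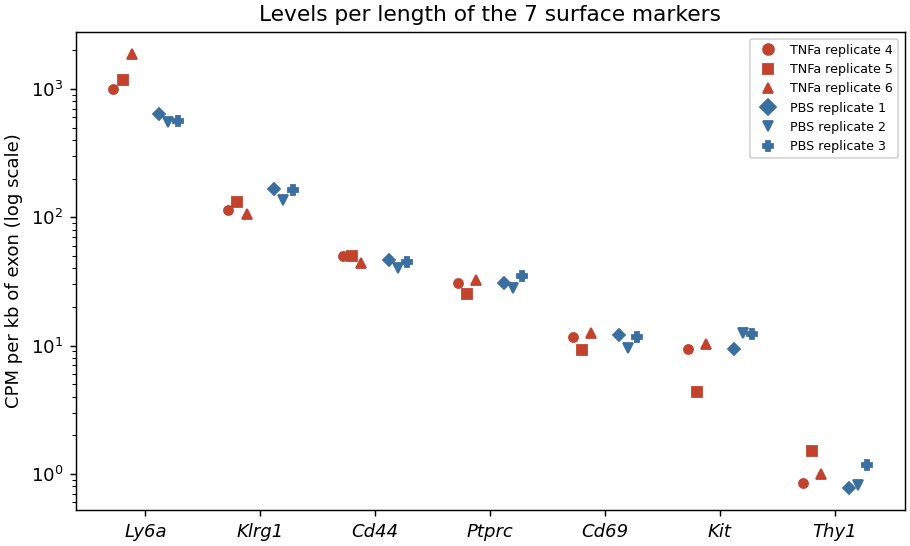
Level of the 7 genes in each library as CPM per kilobase of exon on a log axis, ordered by the TNFa mean, TNFa libraries left of PBS libraries for each gene. Ly6a is at 993 CPM per kb or more in every TNFa library, and Thy1 at 1.51 or less in every library of both groups.

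Relating each of the other 6 genes to Ptprc within its library avoids any scaling between libraries. Ptprc was itself lowest in TNFa replicate 5 and belongs to the quartile with the longest transcripts. The part of the length trend in these ratios was not tested. The log2 ratio of the estimated count of Ly6a to that of Ptprc was 1.09, 1.62 and 1.92 in TNFa replicates 4, 5 and 6, against 0.44, 0.36 and 0.075 in PBS replicates 1, 2 and 3. The groups did not overlap, and the mean difference was 1.25 (exact permutation test over libraries, two-sided p = 0.1, the smallest that 3 against 3 libraries allow). For Klrg1 the log2 ratio was -1.81, -1.29 and -2.001 in the TNFa libraries and -1.26, -1.43 and -1.46 in the PBS libraries. Here TNFa replicate 5 lay among the PBS libraries, and the difference was -0.32 (exact permutation p = 0.3). Without that library it was -0.52 (exact permutation p = 0.1), and without TNFa replicate 6 -0.17 (exact permutation p = 0.5). Kit had a difference of -0.51 (exact permutation p = 0.2), and Thy1, Cd69 and Cd44 had differences of 0.36, 0.094 and 0.23 with exact permutation p-values of 0.5, 0.4 and 0.3. Without TNFa replicate 5 the differences were -0.23 for Kit, 0.0038 for Thy1, 0.11 for Cd69 and 0.083 for Cd44. Leaving out each library in turn, the difference ran from -0.66 to -0.23 for Kit, from 0.0038 to 0.57 for Thy1, from 0.050 to 0.16 for Cd69, from 0.083 to 0.36 for Cd44 and from 1.06 to 1.48 for Ly6a. With the summed ILC2 defining genes in place of Ptprc, the difference was -0.44 for Klrg1 and 1.125 for Ly6a (exact permutation p = 0.1 for each). For Kit, Thy1, Cd69 and Cd44 it was then -0.63, 0.23, -0.031 and 0.10 (exact permutation p = 0.2, 0.6, 0.9 and 0.2).

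Over the 6 libraries the genes most like each marker were sought by Pearson's r of log2 CPM among the tested genes with a mean of at least 10 CPM. With 8747 candidate genes (8748 for Thy1) and 6 libraries high values of r arise readily, so these are descriptions. The nearest to Ly6a were Ywhae (r = 0.992), a 14-3-3 protein gene, and Camk1d (r = 0.988), a calcium-dependent kinase gene. Their fold changes were only 1.09 and 1.16 (edgeR adjusted p = 0.75 and 0.72), beside 2.31 for Ly6a. Nearest to Klrg1 were Dnase1l1 (r = 0.988) and Gzma (r = 0.983), the granzyme A gene, which was at 11.6, 20.0 and 8.56 CPM in the TNFa libraries against 63.6, 34.1 and 53.6 CPM in the PBS libraries. Gzma thus had its highest TNFa value in replicate 5 and its lowest PBS value in replicate 2, as Klrg1 did. Nearest to Kit were Usp37 (r = 0.999), a deubiquitinase gene, and Stk10 (r = 0.997), a kinase gene, both lowest in TNFa replicate 5. Cd69 was followed by Tra2a (r = 0.996) and Plekha1 (r = 0.995), Cd44 by Slc6a6 (r = 0.999) and Sumo2 (r = 0.996), Ptprc by Acer3 (r = 0.995) and Elovl5 (r = 0.992), and Thy1 by Snrnp48 (r = 0.986) and Vps13c (r = 0.978). Between the markers themselves the values of r over 6 libraries ran from -0.814 for Klrg1 with Ly6a to 0.858 for Cd69 with Ptprc, the first of these pairs differing in opposite directions between the groups.

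Other surface genes used with these markers on ILC2s were set beside them. Of 18 listed, 17 were tested, and 1 of them, Icos, a costimulatory receptor, passed, lower with TNFa, beside 0.102% of all genes. It averaged 517 ± 33.1 CPM with TNFa and 888 ± 69.0 with PBS (log2 fold change -0.78 ± 0.10, edgeR adjusted p = 0.036), with no overlap. It also passed in DESeq2 (adjusted p = 6.37e-09) and limma-voom (adjusted p = 0.0235), and the edgeR call was lost without the filter on low counts and when any library other than TNFa replicate 5 was left out. At an unadjusted p under 0.05 in edgeR, 3 of the 17 were higher and 7 lower with TNFa, beside 8.31% of all genes in either direction. No overlap between the groups was seen for 9 of the 17, beside 15.2% of all genes. The other 16 tested genes did not pass in edgeR, and 10 of the 17 had lower means with TNFa, as did 49.4% of all genes, with a median log2 fold change of -0.21 beside 0.0047 for all tested genes. The IL-2 receptor alpha chain Il2ra had the most CPM of these, at 2228 ± 155 CPM with TNFa and 1841 ± 216 with PBS (adjusted p = 0.53), and the shared gamma chain Il2rg stood at 847 ± 85.7 with TNFa and 666 ± 27.1 with PBS (adjusted p = 0.38, no overlap). The cytokine receptors Il17rb, for IL-25, and Crlf2, for TSLP, had log2 fold changes of -0.58 ± 0.16 and -0.59 ± 0.23 (edgeR adjusted p = 0.33 and 0.51), both without overlap and lower with TNFa. The IL-7 receptor alpha chain Il7r, a usual gate for ILC2s, was at 99.85 CPM with TNFa and 99.98 with PBS (edgeR adjusted p = 0.998). Of 27 ligands, partners and signalling genes of the markers 22 were tested and 0 passed in edgeR after adjustment, 5 had an unadjusted p under 0.05, beside 8.31% of all genes, and DESeq2 called 3, Kitl, Itgb3 and Selplg, beside 1.4% of all genes. No overlap between the groups was seen for 5 of the 22, beside 15.2% of all genes. Lower means with TNFa were seen in 17 of the 22, and the median log2 fold change of the 22 was -0.21.

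For comparison of size, 7 NF-kB response genes, listed with earlier results of these data known, were read from the same fit. All 7 had higher means with TNFa, as did 7951 of the 15719 tested genes. Of the 7, 4 passed over all genes (edgeR adjusted p from 0.032 to 0.043), beside 0.0891% of all genes that passed with higher levels. They were Nfkb2, Nfkbia, Traf1 and Birc3, with fold changes of 2.26, 2.17, 1.65 and 1.87. Tnfaip3 had a fold change of 2.31, the same as Ly6a, with an adjusted p of 0.29. Its TNFa and PBS libraries overlapped, where those of Ly6a did not. Tnfaip3 passed in DESeq2 (adjusted p = 0.0071), as Ly6a did. Without TNFa replicate 5, Tnfaip3 passed in edgeR (adjusted p = 0.0055) and Ly6a did not (adjusted p = 0.15). DESeq2 called 6 of the 7 NF-kB genes, beside 1.4% of all genes. The count of 4 was 0 without the filter on low counts, 0 or 1 when any library other than TNFa replicate 5 was left out and 6 without that library.

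**Figure D4:**
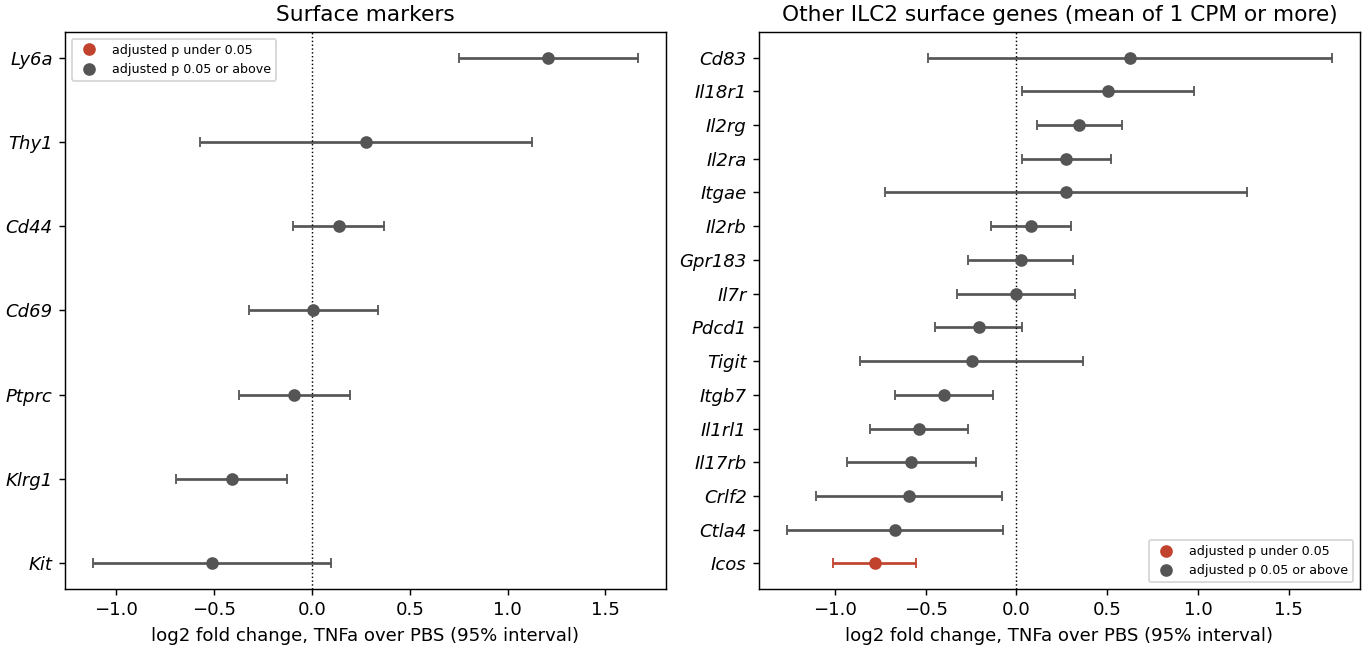
Log2 fold change, TNFa over PBS, with its 95% interval from edgeR for the 7 surface markers (left) and for the other listed ILC2 surface genes with a mean of at least 1 CPM (right), in descending order; red marks an adjusted p under 0.05 over all genes. On the left the intervals of Ly6a and Klrg1 exclude 0 and no gene is red, and on the right Icos at -0.78 is red.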

How the data were processed

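RNA was measured in 6 libraries of sorted lung ILC2s, 3 with TNFa and 3 with PBS. Per the labels' protocols, 10 ng of RNA was turned into cDNA for library preparation. The values the authors deposited are estimated counts of each gene, from Partek's expectation-maximization quantification per the name of the deposited table, which divides reads that match several genes; the values are not scaled between libraries. The submitters' processing notes list CASAVA 1.8.2, STAR, Partek and mm10. Annotation release and strand setting were not stated in those notes. The table held 21825 genes with a total of at least 10 counts, 0 further value columns, and 21681 genes found in GENCODE M21 (mm10), the source of coordinates (1-based), lengths and sequences.

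Rounded estimated counts went into edgeR 4.0.16 (R 4.3.3): filterByExpr (minimum count 10, minimum total 15), TMM scaling, robust quasi-likelihood fit, TNFa over PBS, Benjamini-Hochberg adjustment over 15719 genes, threshold 0.05. SEs and 95% intervals were derived from the F statistics. Alternatives used DESeq2 1.42.0, limma 3.58.1 (voom), RLE and upper-quartile scaling, no filter, a filter at 5 CPM, no robust estimation, and each library left out. Scripts were tested on simulated data. Within groups, every pair of libraries differed beyond counting error (chi-square divided by its degrees of freedom, 15.1 to 115). The spread between 3 libraries, more than depth, limits the precision: for Thy1, with the fewest counts of the 7, counting error alone would give a log2 SE of 0.125, beside 0.379 fitted.

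The 7 genes and all lists were chosen with earlier results of these data known. Named beside them are, per list, called genes, the 3 most abundant and the 3 with the largest change at a mean of 10 CPM or more, and the 2 genes most correlated with each marker; Cdh1, Cdh2, S1pr1, Ezr, Ptprcap, Lck, Il7r, Arg1 and the marker genes of other cells were named for their roles after their values were seen. The interferon-stimulated genes were listed after their values were seen, and 1 gene is not reported here.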

Additional observations from a re-analysis of the deposited data

How the results depend on the processing

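The groups share no replicate numbers and the labels state no pairing, so no paired analysis was made. Whether the TNFa and PBS libraries were paired is not known. Klrg1, Ly6a, Kit and Cd44 kept their direction in the 13 alternatives; Thy1, removed by the 5 CPM filter, was positive in the other 12 but 0.00052 without TNFa replicate 5. Cd69 reversed without TNFa replicate 4, TNFa replicate 6 and PBS replicate 2 (log2 fold changes -0.025, -0.090 and -0.085; all libraries left out in turn, -0.090 to 0.12), and Ptprc without TNFa replicate 5 (0.013; range -0.17 to 0.013). Ly6a, and with it 1 of the 7 and 1 Ly6 gene, passed in DESeq2 (log2 fold change 1.22) and with the 5 CPM filter (1.23); leaving out libraries it ranged from 0.89 to 1.38 and passed in none. Relative to the summed ILC2 defining genes in place of Ptprc, Cd69 reversed to -0.031. All genes called numbered 16, but 3 without a filter, 25 with the 5 CPM filter, 220 in DESeq2 and 1 to 67 with a library left out. Without a filter, 0 of the other ILC2 surface genes, 0 of the ILC2 defining genes and 0 of the NF-kB genes were called. DESeq2 called 2 other surface genes, 3 ligand and partner genes, 4 ILC2 defining genes and 1 structural gene. With a library left out, these counts ran from 0 to 1, 0 to 2, 0 to 2 and 0 to 1, and NF-kB genes from 0 to 6. Per kilobase of the longest transcript the levels with TNFa and PBS were 1698 and 734.5 (Ly6a), 13.6 and 19.4 (Kit), 14.6 and 14.6 (Cd69), 58 and 52.8 (Cd44), 94 and 99.96 (Ptprc), and 1.93 and 1.59 (Thy1). The cause of these moves was not tested.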
